A study of Mus musculus with 8 samples.

Results

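The genes described here are 8 regulators and markers of fat cell formation: Pparg, Cebpa, Cebpb, Cebpd, Fabp4, Lpl, Adipoq and Cd36. They are 8 of 27962 gene names on the array. Every non-control probe that carried 1 of these names in the scanner files was taken, which gave 14 of 41174 probes. Of these 14, 13 were among the 33060 probes with enough signal to test, and the third probe of Fabp4 was not, since Cy3 was well above background for it on 1 of 8 arrays.

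The cells were MC3T3-E1, a mouse pre-osteoblast line from newborn skull bone, grown together with tumour cells in alpha MEM with serum. The design had 4 groups with 2 biological replicates and 1 array per replicate: Jagged1-overexpressing tumour cells with MRK-003, vector tumour cells with MRK-003, Jagged1-overexpressing tumour cells with DMSO, and vector tumour cells with DMSO. Jagged1 is a ligand of Notch receptors, MRK-003 inhibits gamma-secretase, the protease that frees the active part of a bound Notch receptor, and DMSO is the solvent. Every array set Cy3-labelled RNA of a co-culture against the same Cy5-labelled reference RNA from pooled mouse sources, with no dye swap. The tumour line, its species, the dose and duration of treatment and any separation of the cells before extraction are not stated in the labels. MC3T3-E1 cells stand for bone-forming cells as 1 line only. In such bulk RNA, fewer cells of a type and less RNA per cell cannot be told apart.

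Mesenchymal precursors of the bone marrow can become osteoblasts or adipocytes. In the usual account of fat cell formation, C/EBP beta and C/EBP delta (from Cebpb and Cebpd) come first and switch on Pparg and Cebpa, which then maintain each other and turn on the genes of the mature fat cell. Among these are Fabp4, a carrier of fatty acids inside the cell, Lpl, the lipase that frees fatty acids from lipoproteins, Cd36, which takes them up, and Adipoq, the hormone adiponectin. C/EBP beta and C/EBP delta are not particular to fat: osteoblasts express both.

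In these co-cultures the probes of the early regulators Cebpb and Cebpd were bright and those of the mature markers dim. Cebpd was higher by a log2 difference of 0.87 ± 0.18 (SE, 2 arrays in each group) with MRK-003 than with DMSO beside Jagged1 cells, a 1.83-fold difference. It passed an adjusted p of 0.05 only when the slide was fitted as a block. Both probes of Cebpb were higher with Jagged1 cells than with vector cells in DMSO, by 0.45 ± 0.23 and 0.57 ± 0.26, but missed the threshold, and centring the arrays on their medians in place of loess left 0.05 and 0.16. No probe of Pparg, Fabp4, Lpl, Adipoq or Cd36 passed in any comparison, and the large positive values that Lpl, Cd36 and Fabp4 first showed with Jagged1 cells in DMSO moved to between -0.17 and 0.27 when the background was capped, and to between -0.17 and 0.71 over the 5 other treatments tried, capping included.

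That background had to be settled before the results. The main setting, called here the background as fitted, corrected each channel by normexp, a method that estimates 1 background distribution per array. On 3 arrays a few spots had a very high local background: 21 spots over 1000 units on Jagged1 DMSO replicate 2, 9 on Jagged1 MRK-003 replicate 2 and 5 on Jagged1 DMSO replicate 1, against 0 on the others. The highest local background in Cy3 was 32900, 2410 and 21100 units on Jagged1 MRK-003 replicate 2 and Jagged1 DMSO replicates 1 and 2, against 350 or less elsewhere. The fitted mean of the Cy3 background was -312, -83.4 and -260 units on those arrays and between -14.7 and -3.35 on the others. All 3 arrays are co-cultures with Jagged1 cells, so the fault runs with the groups compared.

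A second setting, chosen after this was seen, capped the local background of each array and channel at the level that 0.1% of its spots exceed, before the same correction. The fitted Cy3 means then lay between -6.96 and -2.33 units on all 8 arrays. The change moved 9, 8 and 7 of the 13 member probes by over 0.1 on the log2 scale on Jagged1 DMSO replicate 2, Jagged1 MRK-003 replicate 2 and Jagged1 DMSO replicate 1, and 0 or 1 of 13 on the other arrays. The largest single move, on Jagged1 DMSO replicate 2, was 1.86. Values below are with the background as fitted unless they are called capped.

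**Figure D1:**
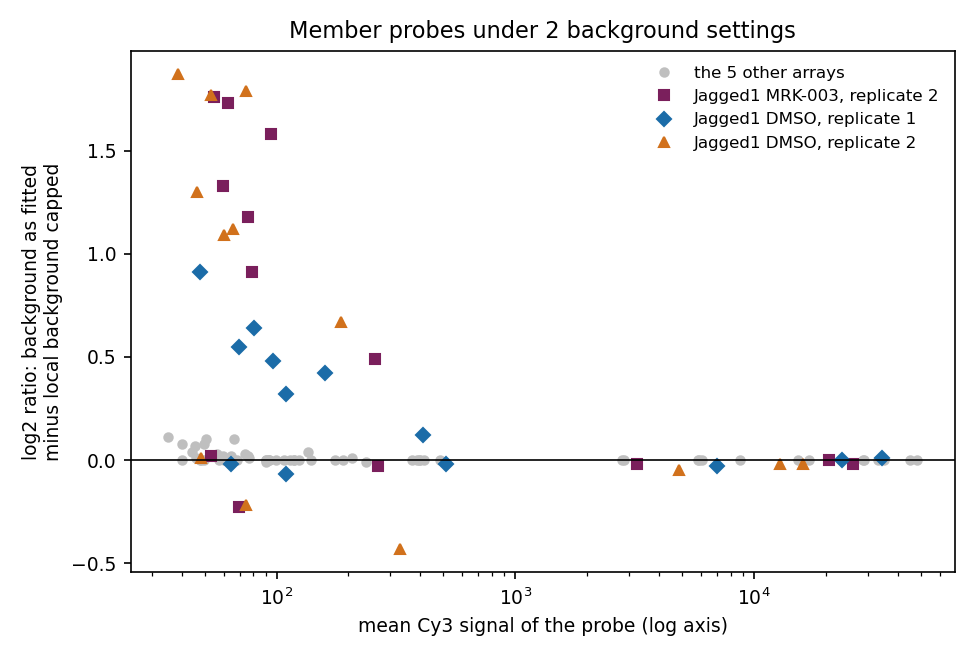
Log2 ratio of each of the 13 member probes with the background as fitted minus that with the local background capped (vertical axis), against the probe's Cy3 signal on that array in scanner units (horizontal, log axis), 1 point per probe and array. Dim probes on 3 Jagged1 arrays lie up to 1.86 above 0 and down to -0.43, while the bright probes of Cebpb and Cebpd lie near 0.

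Replicate 1 of every group lay on 1 slide and replicate 2 on the other, per the file headers, and the first slide was brighter: the median Cy3 signal was 165 to 204 units on slide 1 and 76.5 to 117 on slide 2. Values of slide 1 and slide 2 are given in that order throughout. The Notch response was present: Hey1, a direct Notch target, fell with MRK-003 against DMSO beside Jagged1 cells (-4.44 ± 0.43 on the log2 scale, adjusted p = 0.0442 in limma), and so did Dtx4, a Deltex-family gene (-3.05 ± 0.10, adjusted p = 0.00245). Of the markers on the array, 11 of 12 osteoblast, 12 of 13 macrophage, 9 of 12 epithelial and 6 of 9 endothelial genes were above background on all 8 arrays. Each gene was read by its brightest probe. On single arrays 71.4% to 89.4% of all non-control spots were above background in Cy3, so these counts say little about the cell types present. The osteoblast genes Col1a1, Col1a2, Spp1 and Sparc read 32300 to 65300 units in Cy3, while Alpl, Bglap, Ibsp and Dmp1 read 72.4 to 397 and Phex was above background on 6 arrays. Pth1r, Runx2 and Sp7 lay between, at 518 to 8520 units. Col1a2 stood at the top value of 65300 on all 8 arrays, and Col1a1 and Spp1 on most, so their Cy3 signal could not show a change there. Among the macrophage genes Lyz2 was the brightest, at 1610 to 3420 units, and Aif1 the dimmest, at a mean of 56.7. Among the epithelial genes Krt18 was the brightest, at 562 to 1620, and Esrp1 the dimmest, at a mean of 32.3. With the background capped, Lyz2 and Krt18 were both below the reference RNA on all 8 arrays.

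Cebpd encodes C/EBP delta, a transcription factor induced early by glucocorticoids and cytokines. Its probe lies at chr16:15431723-15431782 (mm7), and the files do not say in which part of the gene. It was bright in Cy3, from 12900 to 48400 units. Its log2 ratio to the reference was 1.99 and 1.58 with Jagged1 cells and MRK-003, 1.78 and 1.49 with vector cells and MRK-003, 0.94 and 0.89 with Jagged1 cells and DMSO, and 1.45 and 1.17 with vector cells and DMSO. Both Jagged1 DMSO arrays lay below the other 6, and all 4 MRK-003 arrays lay above all 4 DMSO arrays.

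Beside Jagged1 cells, Cebpd differed by 0.87 ± 0.18 between MRK-003 and DMSO (95% interval 0.42 to 1.32, adjusted p = 0.201 in limma over 33060 probes). In that comparison 0.185% of all probes passed and 0 of the 13 member probes did. The difference was 1.05 within slide 1 and 0.69 within slide 2. With the slide as a block, which the shared slides call for, Cebpd passed (adjusted p = 0.0302), as did 1.46% of all probes. Capping the background left it at 0.87, now with an SE of 0.11 (95% interval 0.62 to 1.13, adjusted p = 0.00491). There 8.79% of all probes passed, so 1 passing probe among 13 is about the share over the whole array.

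That call was not equally firm in both settings. With the background as fitted and the slide as a block, Cebpd lost it when any 1 of the 8 arrays was left out (adjusted p 0.0712 to 0.193). With the background capped, Cebpd lost the call only without Jagged1 MRK-003 replicate 1 (adjusted p = 0.0514), and the difference ran from 0.72 to 1.02 over the 8 fits. Over 5 other ways of treating the background, capping included, the difference was 0.86 to 0.91. The scanner log ratio and the deposited value table among them hold nearly the same values. The Cebpd probe was far above background, so these settings could hardly move it and do not measure firmness. Centring the arrays on their medians in place of loess gave 0.94, as did Cy3 alone without the reference. Neither passed without the block.

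Of 12 osteoblast markers, 0 passed in the same comparison as fitted with the slide as a block, where Alpl gave 0.71 ± 0.20, Runx2 0.77 ± 0.19 and Bglap 0.28 ± 0.08. Under the capped background with the block 3 of 12 rose, beside the 8.79% of all probes that passed: Alpl, the alkaline phosphatase of bone (1.39 ± 0.11), Runx2, the osteoblast master regulator (0.83 ± 0.18), and Bglap, osteocalcin (0.61 ± 0.10). Capped and blocked, 8 of the 12 were positive, with a median of 0.11, and the lowest was Dmp1 (-0.56 ± 0.15), which did not pass here but fell in the average MRK-003 effect (-0.49 ± 0.10). Among the 12 are Col1a1, Col1a2 and Spp1, which stood at the top Cy3 value on most arrays. Alpl also fell with Jagged1 cells against vector cells in DMSO when capped and blocked (-1.12 ± 0.11), and gave -0.45 ± 0.20 as fitted, which did not pass. Whether the state or share of the osteoblasts had a part in the Cebpd values was not tested.

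Beside vector cells the same inhibitor gave 0.33 ± 0.18 for Cebpd (95% interval -0.12 to 0.78), with 0.34 and 0.32 within the slides. This did not pass, and 0% of all probes passed there with the background as fitted. Averaged over both kinds of tumour cell, Cebpd was 0.60 ± 0.13 higher with MRK-003 than with DMSO (adjusted p = 0.187, and 0.0307 with the slide as a block), where 0.109% and 1.68% of all probes passed. As fitted, the blocked call was lost when any 1 of the 8 arrays was left out (adjusted p 0.0658 to 0.202), and capped it held in all 8 such fits (0.006 to 0.0399). The interaction, coded as the Jagged1 effect in DMSO minus the Jagged1 effect in MRK-003, was not past the threshold: Cebpd gave -0.54 ± 0.26 with an adjusted p of 1 (0.248 with the background capped and the slide as a block). A difference in the size of the MRK-003 effect on Cebpd between the kinds of tumour cell is therefore not shown.

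In DMSO, Cebpd gave -0.39 ± 0.18 on the log2 scale for Jagged1 cells against vector cells (95% interval -0.84 to 0.06), with -0.51 and -0.28 within the slides. The 2 groups did not overlap, but neither did they for 47.3% of all probes. The adjusted p was 0.653, and 0.114 with the background capped and the slide as a block. Under MRK-003 the log2 difference for Jagged1 against vector was 0.15 ± 0.18. Centring the arrays on their medians in place of loess gave -0.78 in DMSO and -0.29 under MRK-003. Neither passed, so the size in DMSO and the sign under MRK-003 depended on the normalization. The comparisons of Jagged1 with vector in DMSO and of MRK-003 with DMSO beside Jagged1 cells share the 2 Jagged1 DMSO arrays, so their opposite signs are not 2 separate observations.

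Cebpb encodes C/EBP beta, the other early regulator, which several signals induce through cyclic AMP and CREB. The 250 bases upstream of its start site, from RefSeq (GRCm38.p6, plus strand, chr2:167688665-167688914), are shown because CREB is known to act at its proximal promoter. Capitals mark TGACG, the half-site of the CREB motif, on either strand.
Cebpb: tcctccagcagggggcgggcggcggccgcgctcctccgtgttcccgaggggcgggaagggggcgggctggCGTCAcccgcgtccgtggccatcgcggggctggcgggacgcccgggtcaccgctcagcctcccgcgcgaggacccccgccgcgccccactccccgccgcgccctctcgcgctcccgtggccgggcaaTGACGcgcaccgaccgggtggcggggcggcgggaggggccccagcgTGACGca
TGACG occurred 3 times, beginning 180, 53 and 7 bases before the start site. It occurred in 17.8% of the 32851 promoters in the table over the same length. TGGGAA, the core of the motif of RBPJ (the DNA-binding partner of Notch), was not in this window, and neither was CACGTG, the E-box that Hes and Hey proteins can bind. A match or its absence says nothing about binding in these cells. Whether CREB or Notch had a part in the Cebpb values was not tested.

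The brighter Cebpb probe (probe 1, chr2:167483001-167483059, mm7) read 8780 to 34300 units in Cy3. Its log2 ratio was 0.64 and 0.80 with Jagged1 cells and MRK-003, 0.21 and 0.82 with vector cells and MRK-003, 0.76 and 1.16 with Jagged1 cells and DMSO, and 0.48 and 0.54 with vector cells and DMSO. The Jagged1 DMSO arrays lay above the vector DMSO arrays, but the Jagged1 MRK-003 values reached into their range. Probe 2 (chr2:167482463-167482522) read 0.93 and 0.26 with Jagged1 cells and MRK-003, 0.71 and 0.24 with vector cells and MRK-003, 1.16 and 1.23 with Jagged1 cells and DMSO, and 0.76 and 0.49 with vector cells and DMSO. On probe 2 both Jagged1 DMSO arrays were above the other 6.

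Between Jagged1 and vector cells in DMSO, Cebpb differed by 0.45 ± 0.23 on probe 1 (95% interval -0.10 to 1.01) and by 0.57 ± 0.26 on probe 2 (-0.06 to 1.21). Neither passed (adjusted p = 0.662 and 0.647 in limma), in a comparison where 0.00907% of all probes did. All 4 within-slide values were positive, 0.28 and 0.62 on probe 1 and 0.40 and 0.74 on probe 2. Capped and blocked, the adjusted p was 0.139 and 0.109, while 3.06% of all probes passed.

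Beside Jagged1 cells, MRK-003 against DMSO gave -0.60 ± 0.26 on Cebpb probe 2 and -0.24 ± 0.23 on probe 1 (adjusted p = 0.716 and 1). The nearest this came to passing was probe 2 with the background capped and the slide as a block (adjusted p = 0.0641). Beside vector cells the values were -0.15 ± 0.26 on probe 2 and 0.01 ± 0.23 on probe 1. Under MRK-003 Jagged1 and vector co-cultures differed by 0.20 ± 0.23 on probe 1 and 0.12 ± 0.26 on probe 2, with overlapping arrays. On both probes the Jagged1 DMSO group had the highest mean of the 4 groups, opposite to Cebpd, for which it had the lowest.

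Pparg encodes the nuclear receptor PPAR gamma, the master regulator of the fat cell, and has several start sites. The one furthest downstream in the table, which fits the start of the fat-cell form PPAR gamma 2, is shown because it is where C/EBP proteins are known to act on Pparg. These are the 250 bases upstream of it (RefSeq, GRCm38.p6, plus strand, chr6:115421816-115422065), with capitals for the C/EBP motif searched, TTGCNNAA, on either strand.
Pparg: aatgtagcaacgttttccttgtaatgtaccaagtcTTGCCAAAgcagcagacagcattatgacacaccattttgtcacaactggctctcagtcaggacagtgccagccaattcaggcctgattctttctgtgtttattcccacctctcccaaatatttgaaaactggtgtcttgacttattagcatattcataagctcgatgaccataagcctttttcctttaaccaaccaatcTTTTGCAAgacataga
The motif occurred 2 times, beginning 215 and 16 bases before this start, and 0 times at the other 2 starts of Pparg. It was in 9.56% of all promoters in the table. TGGGAA occurred 1 time in this window and in those of Adipoq and Cd36, against 21.6% of all promoters with at least 1. Of the 8 members 5 had a promoter in the table. A match is a stretch of letters and says nothing about binding in these cells.

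Pparg was measured by 1 probe on 10 spots (chr6:115515909-115515968, mm7), of which 4 spot readings over all arrays were left out as outliers. Its Cy3 signal was 136 to 486 units. With the background as fitted the log2 ratio was -1.24 and -0.90 with Jagged1 cells and MRK-003, -1.14 and -1.52 with vector cells and MRK-003, -1.10 and -0.90 with Jagged1 cells and DMSO, and -1.31 and -1.71 with vector cells and DMSO. Capping moved the 3 faulty arrays down: Pparg read -1.24 and -1.39 with Jagged1 cells and MRK-003, -1.14 and -1.53 with vector cells and MRK-003, -1.22 and -1.57 with Jagged1 cells and DMSO, and -1.31 and -1.75 with vector cells and DMSO. The 4 groups then overlapped, and slide 2 lay below slide 1 in each.

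Between Jagged1 and vector cells in DMSO, Pparg differed by 0.51 ± 0.21 with the background as fitted (95% interval 0.00 to 1.03, adjusted p = 0.63 in limma). Capped, this became 0.13 ± 0.21 (-0.36 to 0.63, adjusted p = 0.917). Beside Jagged1 cells MRK-003 gave -0.07 ± 0.21 for Pparg as fitted and 0.08 ± 0.21 capped (-0.42 to 0.58). Beside vector cells it gave 0.18 ± 0.21 and 0.20 ± 0.21. The highest Cebpd group, Jagged1 MRK-003, thus came with Pparg levels inside the range of the other groups.

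Cebpa encodes C/EBP alpha, the partner that keeps Pparg on in mature fat cells, and its 2 probes differed. Probe 1 (chr7:32011212-32011271, mm7, 175 to 513 units) read 0.04 and 0.02 with Jagged1 cells and MRK-003, 0.20 and -0.16 with vector cells and MRK-003, 0.21 and 0.43 with Jagged1 cells and DMSO, and 0.40 and 0.56 with vector cells and DMSO. The 4 MRK-003 arrays lay below the 4 DMSO arrays. Probe 2 (chr7:32010056-32010115, 65.2 to 124 units) stayed between 0.03 and 0.25 on all 8 arrays, with no such split. Capped, Jagged1 DMSO replicate 2 read 0.86 on probe 1, the MRK-003 arrays still lay below the DMSO arrays there, and probe 2 ran from 0.04 to 0.27.

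Averaged over both kinds of tumour cell, Cebpa probe 1 was -0.38 ± 0.11 with MRK-003 against DMSO (95% interval -0.64 to -0.12, adjusted p = 0.316 in limma) and -0.48 ± 0.16 with the background capped (adjusted p = 0.24, and 0.0925 with the slide as a block). It was larger on slide 2, at -0.57, than on slide 1, at -0.18. Probe 2 gave 0.01 ± 0.08. Jagged1 against vector in DMSO gave -0.16 ± 0.15 on probe 1 and -0.05 ± 0.11 on probe 2 as fitted, and 0.06 ± 0.22 and 0.09 ± 0.11 capped. No Cebpa probe passed in any comparison, and the probes gave unlike values. Probe 2 was dim in both channels (65.2 to 124 units in Cy3, 108 to 222 in Cy5), so its flat ratio says little about Cebpa.

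Lpl, Cd36 and Fabp4, the lipid-handling genes, were below the reference RNA on all 8 arrays and near the dim end in Cy3. Lpl probe 1 (chr8:67361126-67361185, mm7) read 66.5 to 189 units in Cy3 against 2850 to 5300 in Cy5. With the background as fitted its log2 ratio was -3.79 and -2.33 with Jagged1 cells and MRK-003, -3.50 and -3.94 with vector cells and MRK-003, -3.18 and -2.28 with Jagged1 cells and DMSO, and -4.05 and -4.06 with vector cells and DMSO. The 3 highest values belong to the 3 arrays with the background fault. Capped, Lpl read -3.79 and -3.91 with Jagged1 cells and MRK-003, -3.50 and -3.97 with vector cells and MRK-003, -3.60 and -4.07 with Jagged1 cells and DMSO, and -4.05 and -4.16 with vector cells and DMSO. The Jagged1 and vector groups then overlapped in DMSO and in MRK-003.

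Lpl probe 1 accordingly gave 1.32 ± 0.52 for Jagged1 against vector in DMSO as fitted (adjusted p = 0.622 in limma) and 0.27 ± 0.20 capped (95% interval -0.22 to 0.76, adjusted p = 0.825). Probe 2 (chr8:67355909-67355968) gave 0.71 ± 0.56 as fitted and -0.05 ± 0.25 capped. Over the 5 treatments of the background other than as fitted, capping included, probe 1 gave 0.27 to 0.49 and probe 2 -0.05 to 0.26. MRK-003 against DMSO beside Jagged1 cells gave -0.33 ± 0.52 on probe 1 and -0.18 ± 0.56 on probe 2 as fitted, and -0.02 ± 0.20 and 0.04 ± 0.25 capped. Beside vector cells Lpl probe 1 was 0.33 ± 0.52 as fitted and 0.37 ± 0.20 capped, with 0.55 and 0.19 within the slides when capped, and did not pass.

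Cd36 probe 1 (chr5:16796301-16796360, mm7) read 50.6 to 90.1 units in Cy3. With the background as fitted its log2 ratio was -3.08 and -1.17 with Jagged1 cells and MRK-003, -3.08 and -2.82 with vector cells and MRK-003, -2.46 and -1.12 with Jagged1 cells and DMSO, and -3.10 and -2.44 with vector cells and DMSO. Capped, all 8 arrays lay between -3.11 and -2.54. The Jagged1 effect in DMSO was 0.98 ± 0.71 as fitted and -0.17 ± 0.20 capped (-0.66 to 0.31). Beside Jagged1 cells MRK-003 against DMSO gave -0.33 ± 0.71 as fitted and 0.00 ± 0.20 capped (-0.48 to 0.49). Cd36 probe 2, whose mapped span of 2433 bases is wider than the probe itself, was above background in Cy3 on 5 of 8 arrays. Only with Jagged1 cells and MRK-003 was it above background on both arrays of a group, and in both DMSO groups it was not on slide 2. It gave 1.19 ± 0.94 and -0.14 ± 0.43 for the Jagged1 effect in DMSO as fitted and capped. The same 5 treatments gave -0.17 to -0.10 on probe 1 and -0.14 to 0.38 on probe 2.

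Fabp4 was dim as well. Probe 1 (chr3:10212718-10213447, mm7, a span of 730 bases) read 45.5 to 118 units, and its log2 ratio with the background capped was -1.40 and -1.26 with Jagged1 cells and MRK-003, -1.25 and -1.32 with vector cells and MRK-003, -1.25 and -1.46 with Jagged1 cells and DMSO, and -1.46 and -1.38 with vector cells and DMSO. All 8 arrays lay between -1.46 and -1.25. As fitted, Jagged1 MRK-003 replicate 2 read -0.35 and the Jagged1 DMSO arrays -0.93 and -0.37, and the other 5 stayed in that range. The Jagged1 effect in DMSO was 0.73 ± 0.35 as fitted and 0.07 ± 0.11 capped (-0.21 to 0.34), and MRK-003 beside Jagged1 cells gave -0.22 ± 0.35 as fitted and 0.03 ± 0.11 capped (-0.24 to 0.30). Probe 2 (chr3:10212636-10212696), above background on 7 of 8 arrays, gave 0.93 ± 0.60 as fitted and 0.05 ± 0.31 capped for the Jagged1 effect in DMSO. The same 5 treatments gave 0.07 to 0.45 on probe 1 and 0.05 to 0.71 on probe 2.

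Adipoq, the marker most particular to fat cells, was near the floor in both channels: 40.1 to 66.5 units in Cy3 and 68.0 to 136 in Cy5 (chr16:22816125-22816184, mm7), and above background on 7 of 8 arrays in each. Its log2 ratio was between -0.08 and 0.17 on all 8 arrays. In the comparisons of 2 groups it gave -0.08 to 0.05, each with an SE of 0.11. With both channels dim, a ratio near 0 says little about its level.

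**Figure D2:**
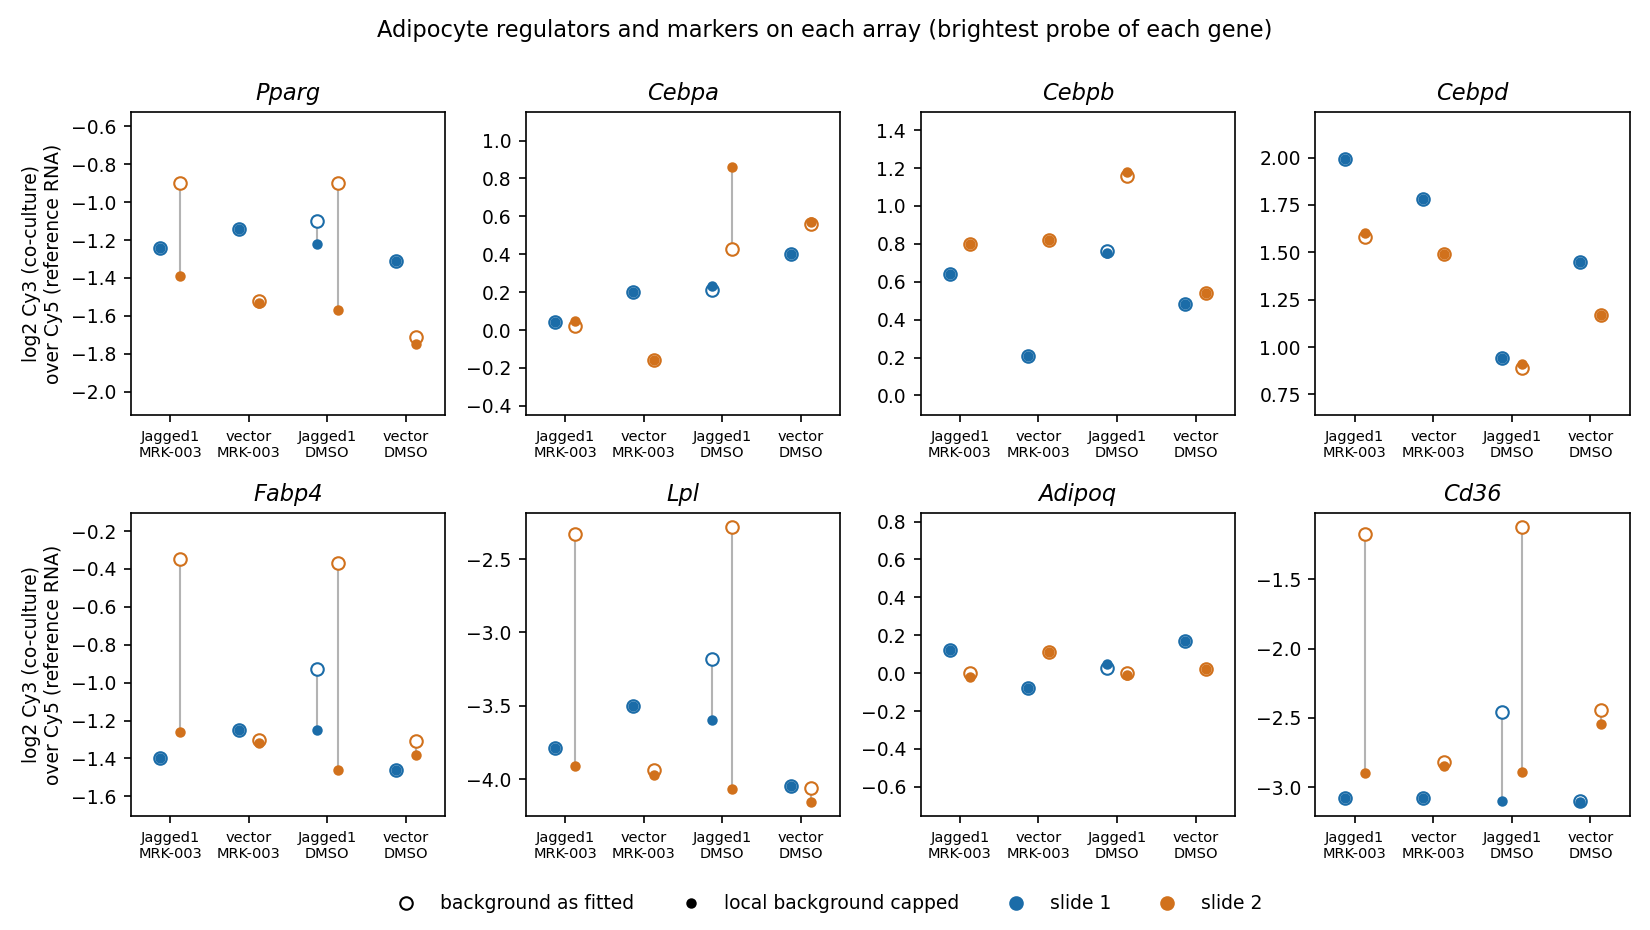
Log2 Cy3 (co-culture) over Cy5 (reference RNA) of the brightest probe of each gene, 1 point per array, in the 4 groups, with a vertical scale of its own in each panel. Open points show the background as fitted, filled points the local background capped, and colours the slide. Cebpd is lowest with Jagged1 cells and DMSO (0.94 and 0.89), and the open points of Fabp4, Lpl and Cd36 that stand apart fall back among the others when filled.

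Over the 13 member probes, the Jagged1 and vector groups in DMSO did not overlap for 7 as fitted (6 higher, 1 lower) and for 3 capped (2 higher, 1 lower). Over all probes the share was 47.3% as fitted (22.5% higher, 24.8% lower) and 41.5% capped (18.6% higher, 22.9% lower). The 3 that remained apart were both Cebpb probes and Cebpd. Between MRK-003 and DMSO beside Jagged1 cells 3 of 13 did not overlap in either setting, 1 higher (Cebpd) and 2 lower (Cebpa probe 1 and Cebpb probe 2). All probes there gave 32.9% as fitted (17.8% higher, 15.1% lower) and 44.5% capped. Beside vector cells 4 of 13 did not overlap in either setting, with Cebpd, Fabp4 probe 1 and Lpl probe 1 higher and Cebpa probe 1 lower, against 25.2% as fitted (12.5% higher, 12.7% lower) and 25.5% capped. In MRK-003 no member separated Jagged1 from vector co-cultures (0 of 13, against 16.5% of all probes as fitted and 16.1% capped).

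Of the 13 member probes, 0 passed in any of the 6 comparisons without the block, with either background. With the background capped, 0.148% of all probes passed for Jagged1 against vector in DMSO, 1.62% for MRK-003 beside Jagged1 cells, 1.28% for the average MRK-003 effect and 0% for the other 3 comparisons. With the block Cebpd alone passed, for MRK-003 beside Jagged1 cells and for the average effect. Blocked and as fitted, 0.23% of all probes passed for Jagged1 against vector in DMSO. Capped and blocked, the average effect had 8% of all probes, the interaction 0.278% and MRK-003 beside vector cells 0.00302%.

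The median difference over the 13 probes was 0.57 as fitted and 0.06 capped for Jagged1 against vector in DMSO, beside -0.01 over all probes in both settings. For MRK-003 against DMSO beside Jagged1 cells it was -0.24 as fitted and 0.00 capped, beside 0.00 and 0.01. For MRK-003 beside vector cells it was 0.00 in both settings, and for Jagged1 against vector co-cultures under MRK-003 0.26 as fitted and 0.02 capped. The interaction passed for 0 of 13 member probes and 0% of all probes as fitted.

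**Figure D3:**
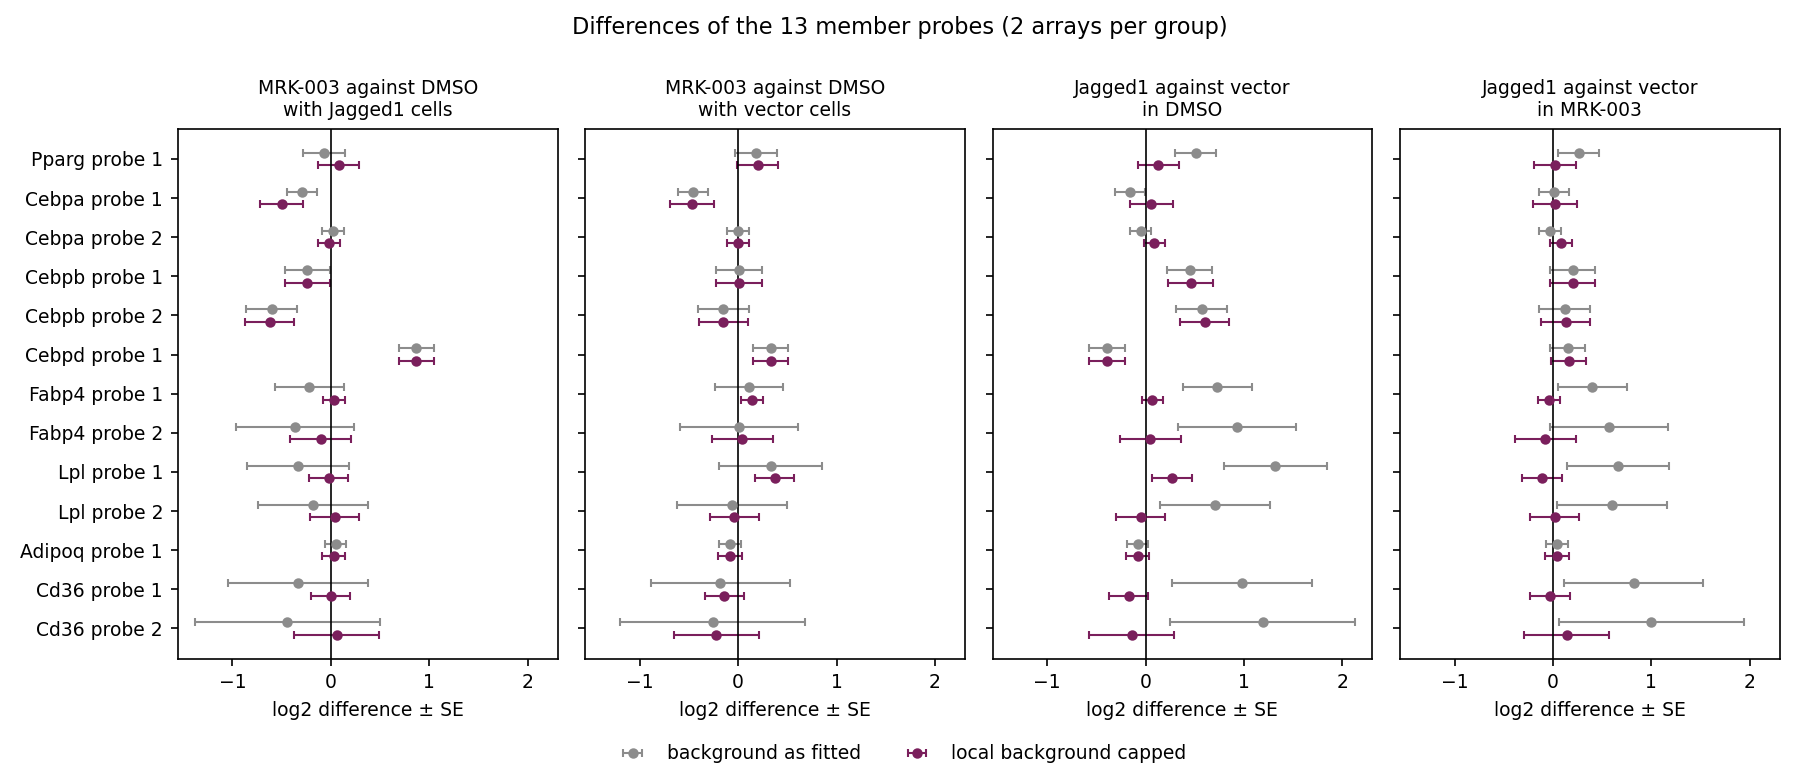
Log2 differences (points) and their standard errors (bars) of the 13 member probes in the 4 comparisons of 2 groups, 2 arrays per group, with the background as fitted (grey) and the local background capped (purple). Cebpd stands at 0.87 in both settings with MRK-003 beside Jagged1 cells, while the grey values of Fabp4, Lpl and Cd36 with Jagged1 cells in DMSO have purple partners between -0.17 and 0.27.

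Around the members, 6 lists of genes of the same pathway were read, each gene by its brightest probe. The shares of all probes given beside these lists also count dimmer probes, so the 2 kinds of share are not like for like. The same holds for the osteoblast markers above. With the background as fitted and no block, 0 genes of any list passed in any comparison. The genes with the smallest p for MRK-003 against DMSO beside Jagged1 cells gave these values, none past the test. They were Xbp1 (-0.72 ± 0.15) and Klf4 (0.55 ± 0.20) among the pro-adipogenic factors, Hes1 (-1.65 ± 0.22) and Wnt6 (0.61 ± 0.15) among the anti-adipogenic regulators, and Rxrb (-0.84 ± 0.24) and Med1 (0.24 ± 0.13) among the PPAR partners. Among the mature adipocyte genes they were Elovl6 (0.68 ± 0.11) and Acsl1 (1.00 ± 0.19), among the uptake genes Sdc1 (-1.68 ± 0.35) and Gpc1 (-0.42 ± 0.11), and among the adipokines Rarres2 (-0.32 ± 0.11) and Nampt (0.31 ± 0.25). For Jagged1 against vector cells in DMSO they were Xbp1 (0.34 ± 0.15) and Nr3c1 (-0.29 ± 0.14), Wnt6 (-0.60 ± 0.15) and Ddit3 (0.33 ± 0.09), Rxrb (0.39 ± 0.24) and Crebbp (0.21 ± 0.13) in the same order of lists. In the last 3 lists they were Elovl6 (-0.79 ± 0.11) and Acsl1 (-0.61 ± 0.19), Sdc1 (1.15 ± 0.35) and Slc27a1 (0.48 ± 0.17), and Rarres2 (0.62 ± 0.11) and Rbp4 (0.94 ± 0.68).

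As fitted, with the slide as a block, MRK-003 against DMSO beside Jagged1 cells had 4 passing genes of 95 tested (4.21%, against 1.46% of all probes): Hes1 (-1.65 ± 0.19) and Wnt6 (0.61 ± 0.09) of the 16 tested anti-adipogenic regulators, Acsl1 (1.00 ± 0.15) of 26 mature adipocyte and lipid storage genes, and Sdc1 (-1.68 ± 0.18) of 13 fatty acid uptake genes. Hes1 is itself a Notch target and Wnt6 a Wnt ligand that holds back fat cell formation. Acsl1 activates fatty acids for storage or burning, and Sdc1 is a cell-surface proteoglycan that takes part in lipoprotein uptake.

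With the background capped and the slide as a block, 12 of 95 list genes passed for MRK-003 against DMSO beside Jagged1 cells (12.6%, against 8.79% of all probes). Of the 16 pro-adipogenic transcription factors, Nr3c1, the glucocorticoid receptor, rose by 0.43 ± 0.10, while Xbp1 fell by 0.74 on the log2 scale (SE 0.15) and Ebf1 fell by 0.73 (SE 0.15). Of the 16 anti-adipogenic regulators, Wnt6 (0.64 ± 0.09) and Wnt10b (0.52 ± 0.12) rose and Hes1 (-1.80 ± 0.12) fell. Of 15 PPAR partners and coregulators Rxrb, a retinoid X receptor that pairs with PPARs, gave -0.90 ± 0.19 and fell. The 3 of 26 mature adipocyte genes that rose were Acsl1 (1.07 ± 0.15), Cav1 (0.72 ± 0.12), a caveolar coat protein, and Elovl6 (0.66 ± 0.08), a fatty acid elongase. Sdc1 fell (-1.73 ± 0.18) and Nampt, an enzyme of NAD synthesis that is also secreted, rose (0.42 ± 0.09), the only ones to pass of 13 uptake genes and 9 adipokines and receptors.

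The list medians with the background capped for this comparison were -0.06 for the pro-adipogenic factors, -0.04 for the anti-adipogenic regulators, 0.06 for the PPAR partners, -0.03 for the mature adipocyte genes, -0.13 for the uptake genes and 0.01 for the adipokines, beside 0.01 over all probes.

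For Jagged1 against vector cells in DMSO, 5 of 95 list genes passed with the background capped and the slide as a block (5.26%, against 3.06% of all probes). Sdc1 (1.19 ± 0.18) and Hes1 (0.67 ± 0.12) rose. Wnt10b (-0.73 ± 0.12), Elovl6 (-0.67 ± 0.08) and Wnt6 (-0.56 ± 0.09) fell. The medians of the 6 lists were -0.07 to 0.22 with the background capped, beside -0.01 over all probes. In that setting Acsl1 gave -0.65 ± 0.15 and did not pass (adjusted p = 0.076 in limma).

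Acsl1 gave these log2 ratios with the background capped: 0.35 and 0.89 with Jagged1 cells and MRK-003, 0.52 and 0.88 with vector cells and MRK-003, -0.43 and -0.48 with Jagged1 cells and DMSO, and 0.20 and 0.19 with vector cells and DMSO. Acsl1, like Cebpd, was lowest in the Jagged1 DMSO group. Averaged over the tumour cells, Acsl1 rose with MRK-003 by 0.75 ± 0.10 as fitted (adjusted p = 0.0401, slide as a block) and by 0.79 ± 0.11 capped.

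**Figure D4:**
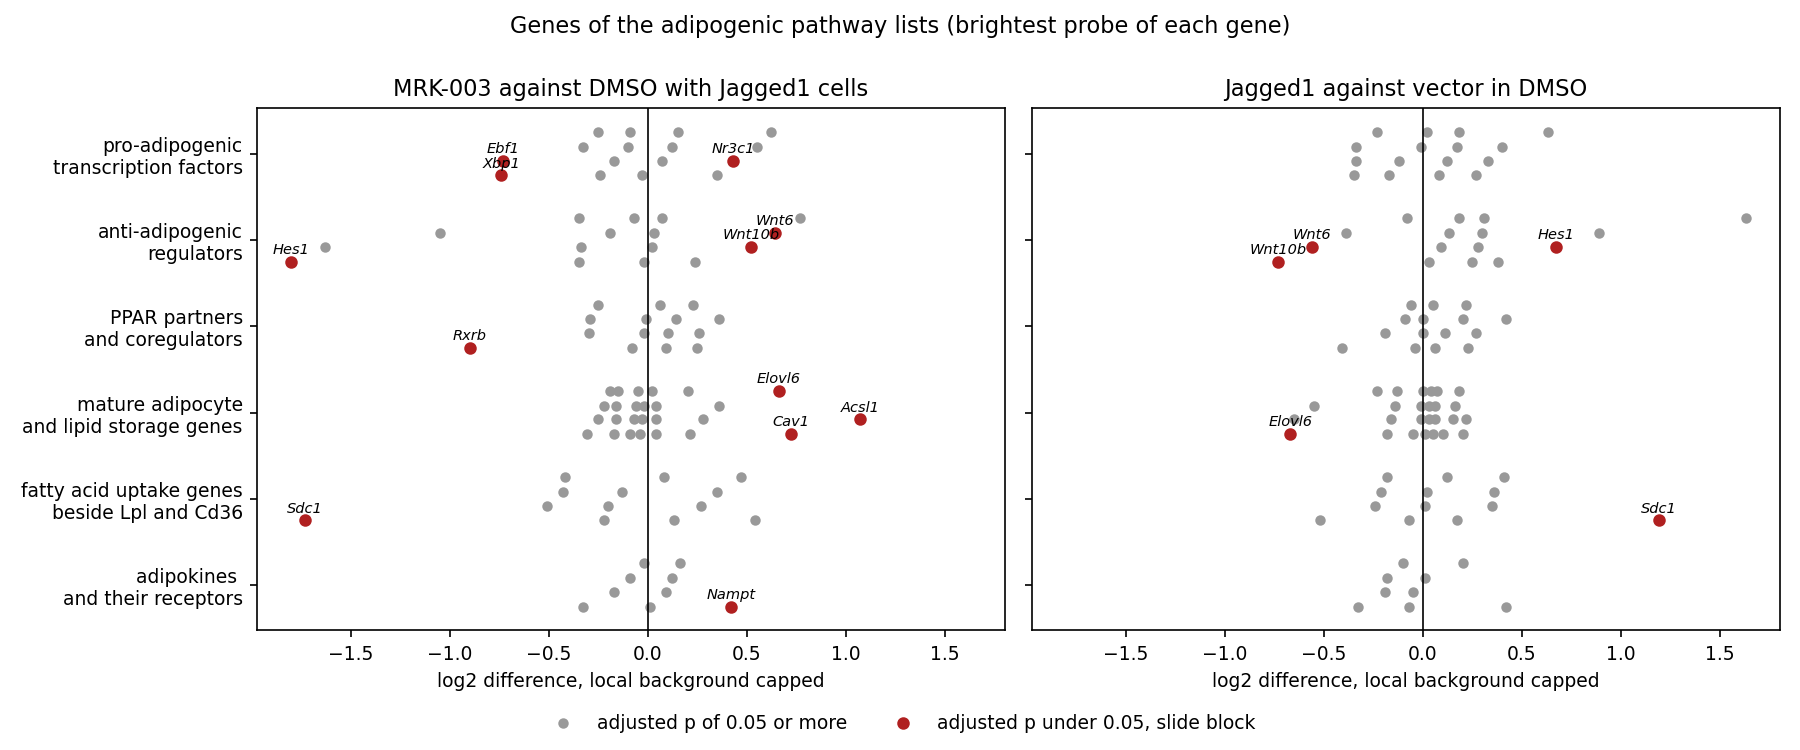
Log2 difference of each gene of the 6 pathway lists (horizontal axis, local background capped), for MRK-003 against DMSO beside Jagged1 cells (left) and Jagged1 against vector cells in DMSO (right), 2 arrays per group. Red points passed an adjusted p of 0.05 with the slide as a block, grey ones did not, and the vertical spread within a list only separates the points. Most genes lie near 0, with Hes1 and Sdc1 lowest on the left.

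Markers of other cell types gave these values beside the members. With the background capped, Jagged1 against vector in DMSO gave a median of -0.01 over 13 macrophage markers and 0.17 over the 9 tested epithelial markers, all 9 of them positive (0.03 to 0.45) and none passing. For MRK-003 beside Jagged1 cells the 9 epithelial markers lay between -0.31 and -0.04. As fitted, the same macrophage and epithelial lists stood at 0.71 and 0.68 for Jagged1 in DMSO, like the dim members. Of the 12 epithelial markers, 9 were above background on all 8 arrays, Cldn4 on 4, Cdh1 on 2 and Esrp1 on 0. This stands beside 71.4% to 89.4% of all non-control spots on single arrays. Their summed Cy3 signal was 2820 to 3880 units in the Jagged1 MRK-003 arrays, 2430 to 4970 with vector cells and MRK-003, 2460 to 4660 with Jagged1 cells and DMSO, and 2090 to 3900 with vector cells and DMSO. Whether RNA of tumour cells had a part in the Cebpb values was not tested.

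The genes whose log2 ratios ran most like those of each member over the 8 arrays, after the mean of each slide was taken away, depended on the background. Adipoq was left out here, since its probe was not above background on all 8 arrays. For Cebpd they were Ets2, Ranbp1 and Ndufb7 as fitted (Pearson r 0.991, 0.989 and 0.986) and Trub2, Asph and Acot13 capped (0.996, 0.995 and 0.99). For Cebpb they were Ugcg, Ccni and Gng3 as fitted (0.984, 0.967 and 0.964) and Olfr365, Ugcg and Olfr1346 capped (0.986, 0.985 and 0.968). For Pparg they were Abcc3, Nrgn and Slc12a5 as fitted (0.997, 0.996 and 0.995), and Aurkc, Defa20 and Stx8 capped (0.983, 0.977 and 0.974). For Cebpa they were Rnf8, Rsph3a and Ctbp2 as fitted (0.99, 0.988 and 0.985), and Srrt, Xab2 and Rilpl1 capped (0.996, 0.991 and 0.991). For Fabp4 they were Krt15, Krt20 and Blnk as fitted (0.999, 0.999 and 0.997), and Cpa4 and Pde6h capped (0.983 and 0.981). Ugcg was among the 3 of Cebpb in both settings, while Lpl and Cd36 shared no name between settings. All these values come from the same 8 arrays, picked as the highest among all named probes, so they describe these arrays only.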

How the data were processed

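RNA of 8 co-cultures was measured on 8 two-colour Agilent arrays with 175 ng of RNA each, per the labels. The authors deposited scanner files from Agilent Feature Extraction 9.5.3.1, per the file headers, with spot and local background intensity in Cy3 and Cy5. The same deposited files hold a log10 ratio of Cy5 over Cy3 and flags of 0 or 1 for signal above background, outliers and saturation. A value table, which the authors deposited as log2 values, equalled log2 of processed Cy3 over processed Cy5 plus a constant of 0.01 to 0.06 per array for 100% of probes within 0.02, so its direction and scale are known, and its column medians were 0.11 to 0.21. Probe coordinates are on mm7, per the file headers.

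From the spot and background intensity the signals were corrected by normexp with an offset of 50, normalized by loess within arrays with control spots at weight 0, and averaged over the spots of a probe in limma 3.58.1 (R 4.3.3). Outlier spots and probes too dim in all groups were left out, which kept 33060 of 41174 probes. A model with 4 group means was fitted to log2 Cy3 over Cy5, with Benjamini-Hochberg adjustment over 33060 probes, 4 residual degrees of freedom and a threshold of 0.05. Only 8 arrays limit the precision. Without the block, p-values measure the spread between 2 biological replicates per group, which includes the difference between the slides. With the block they measure what remains of that spread once the slide is fitted. The capped background was chosen after seeing the data, and so was its combination with the block.

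Replicate numbers coincide with the 2 slides, per the file headers, and same-numbered arrays deviated together: the correlation of the slide deviations between groups was 0.38 to 0.75 as fitted and 0.36 to 0.85 with the background capped. The numbers therefore pair the samples, and blocked values are printed where they change a call.

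The 8 genes and the pathway and marker lists were chosen with earlier results of these data known. Every member probe is named. For Jagged1 against vector in DMSO and for MRK-003 beside Jagged1 cells, at most 4 passing genes of each list are named. They were taken by smallest p, and where none passed the 2 with the smallest p were given. The 3 most alike genes are named for the members other than Lpl, Cd36 and Adipoq. A gene of the adipokine list, taken out of its counts and medians, and a gene among those most like Fabp4 are not reported here. On simulated data for MRK-003 against DMSO beside Jagged1 cells, with 33060 probes and 50 changed probes per size, the fit without the block recovered 0% of changes of 0.5, 52% of 1, 96% of 2 and 98% of 4 on the log2 scale. The blocked fit recovered 20%, 100%, 100% and 100%, with 13 unchanged probes called. Probe means and slide differences of the simulation came from the capped background, and its noise from the blocked fit. The gain from the block was thus built in, and the rates do not apply to the background as fitted.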

Additional observations from a re-analysis of the deposited data

How the results depend on the processing

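The number of probes past an adjusted p of 0.05 in limma depended strongly on the background and the block, while the members' calls did not, apart from Cebpd. As reported it was 3 for Jagged1 against vector in DMSO, 61 for MRK-003 against DMSO beside Jagged1 cells and 36 for the average MRK-003 effect. In the same order it was 50, 516 and 424 with the background subtracted, spots below 0.5 set to 0.5 and the same offset of 50 added. It was 55, 538 and 449 with no background correction and no offset, 17, 251 and 210 with the scanner log ratio, and 15, 245 and 205 with the deposited value table. It was 0, 0 and 0 with median centring and 49, 537 and 424 with the background capped. With 1 probe per gene the average effect had 70. The interaction had 0 as reported and 2 with no background correction. With the background as fitted, 0 probes passed for Jagged1 against vector in MRK-003 and for MRK-003 beside vector cells in limma, against 239 and 1062 at an unadjusted p under 0.05, and 597 for the interaction.

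With the replicate block the counts were 76, 484 and 555. With the replicate block and the scanner log ratio they were 236, 1124 and 921, with 2 for the interaction. With the replicate block and the background capped they were 1013, 2906 and 2645, with 92 for the interaction and 1 for MRK-003 beside vector cells. In these 3 blocked settings 1 member probe, Cebpd, passed for MRK-003 beside Jagged1 cells and for the average effect, and the block changed no other member's call.

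Without 1 array at a time, 0 to 1 probes passed for Jagged1 against vector in DMSO, 0 to 1 for Jagged1 against vector in MRK-003, 0 to 10 for MRK-003 beside Jagged1 cells and 0 to 17 for the average effect. With the background capped these were 0 to 15, 0 to 0, 13 to 380 and 11 to 152, with 0 to 1 for the interaction. The lowest counts with the background capped came without Jagged1 DMSO replicate 1. The brightest probe of each member was followed for Jagged1 against vector in DMSO and for MRK-003 beside Jagged1 cells. Under other settings 376 values stayed within the SE of the main value, 115 moved beyond it, 3 (all Cebpd) newly passed and 0 reversed a call. Some settings leave a difference unchanged by design, such as dropping an array of a group not compared. No member passed as reported, so there was no call to reverse, and the tally does not measure robustness. The cause of these changes was not tested. Signal limits what can be said of Adipoq, Cd36 and Fabp4, which lie close to the background in Cy3.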
